A study of Mus musculus with 2 samples.

Results

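The genes described here are the mouse protein-coding genes on chromosomes 1 to 19 whose symbols begin with Vps or Snx followed by a number. The name pattern found 64 genes among 20780 autosomal protein-coding genes of the GENCODE annotation: 35 Vps genes and 29 sorting nexin genes. They were read in maps of trimethylated lysine 36 of histone H3 (H3K36me3) made with ChIP-seq, the sequencing of chromatin fragments pulled down by an antibody, in unstimulated bone marrow-derived macrophages (BMDM) of C57BL/6J mice. There was 1 group of 2 biological replicates, both tied by the labels to the same donor record, so their differences may be technical in part. The histone mark was read from pools of many cells, and fewer cells with the mark and less of it per cell cannot be told apart. Sex and age were not collected, and no genotype or treatment differed between the samples. With 1 group no test across samples was possible, and every comparison below is a description.

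Vps genes take their name from yeast mutants that missort vacuolar proteins, and many of their products sit in complexes that tether, sort or cut membrane on the way between endosomes, the Golgi and lysosomes. Sorting nexins share a PX domain that binds phosphoinositide lipids, and a subgroup adds a curved BAR domain that shapes membrane into tubules. Macrophages depend on this traffic to mature phagosomes, deliver hydrolases to lysosomes and return receptors to the surface. H3K36me3 is laid down along gene bodies behind elongating RNA polymerase II, mainly by Setd2, so its peaks tend to lie inside transcribed genes.

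The measure is the covered share, the percent of a gene body (annotated start to annotated end) that lies under the peaks the authors called in a replicate. A gene was called marked at a covered share of at least 20% in both replicates. Replicate 1 held 32098 peaks over 28.5 Mb and replicate 2 held 58505 over 79.4 Mb, so covered shares are higher in replicate 2 almost throughout. The lists carry no read counts, the depth is unknown, and a gene without a peak was undetected rather than shown to lack the mark. As a check of the cell type, 10 of 10 macrophage marker genes reached 20% in replicate 2 and 6 in replicate 1. Of all autosomal coding genes, 24.6% and 8.06% did so. Of 26 markers of T cells, B cells, neutrophils, dendritic cells and fibroblasts, all 26 had no peak in either replicate. The same held for 59.8% of all coding genes and 85.9% of those under 5 kb. The absence of peaks therefore says little for short markers, such as those of neutrophils (median 3.49 kb).

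The Vps and Snx genes carried the mark more often than coding genes at large. Of the 64 genes, 14 were marked in both replicates, or 21.9%, against 8.03% of all autosomal coding genes. In replicate 1 the same 14 reached 20%, against 8.06% of all coding genes. In replicate 2 it was 47, or 73.4%, against 24.6%. Of the 64 genes, 55 held a peak in each replicate, or 85.9%, against 30.2% of all coding genes. Another 6 had a peak in replicate 2 alone, and 3 had none in either replicate, or 4.69%, against 59.8% of all coding genes. Among genes with a peak in both replicates, 14 of 55 here and 1669 of 6269 over all coding genes were marked, a similar share. The higher share marked in both replicates thus went with more genes holding a peak at all. The median covered share of the 64 was 9.82% in replicate 1 and 36.1% in replicate 2, where the median over all coding genes was 0% in each. Covered shares were larger in replicate 2 for 61 genes and in replicate 1 for 0. The count of 14 therefore follows replicate 1, and replicate 2 alone gives 47.

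Length bears on any covered share, since short and very long genes are seldom covered far. The 64 genes had a median length of 35.0 kb, against 17.6 kb for all coding genes. Among the 22 of 20 to 50 kb, 7 reached 20% in replicate 1 and 18 in replicate 2, or 31.8% and 81.8%, against 12.5% and 35.1% of all coding genes of that length. Among the 18 of 5 to 20 kb it was 5 and 15, or 27.8% and 83.3%, against 10.8% and 29.4%. Among the 9 of 50 to 100 kb none reached 20% in replicate 1 (0) and 5 did in replicate 2, or 55.6%, against 6.42% and 24.9%. The share was thus above that of all coding genes of like length in every class in replicate 2. In replicate 1 it was above only in the classes of 5 to 20, 20 to 50 and 100 to 200 kb. The classes under 5 kb and of 200 kb or more held only 2 and 4 genes. Of these, 2 and 1 reached 20% in replicate 2 and 0 in replicate 1. With 2.12% and 0.315% of all coding genes of those lengths doing so in replicate 1, a count of 0 there says little.

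**Figure D1:**
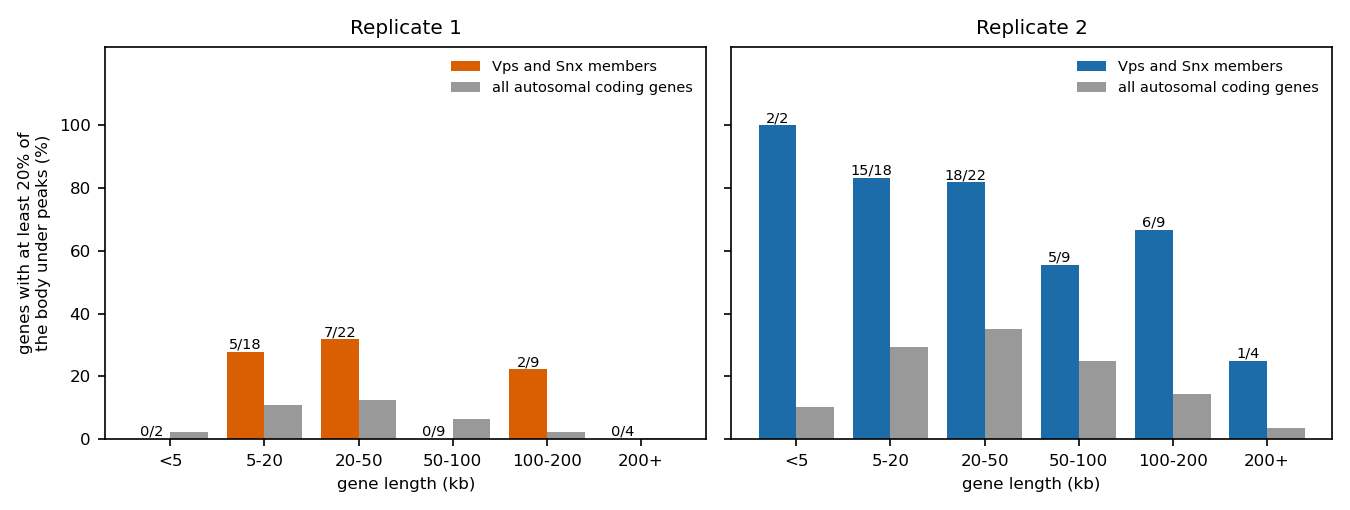
Percent of genes with at least 20% of the body under H3K36me3 peaks, by gene length in kb, for the Vps and Snx genes (coloured bars, with counts of genes above them) and all autosomal coding genes (grey bars), in replicate 1 (left) and replicate 2 (right). In replicate 2 the coloured bar is above the grey one in all 6 length classes, while in replicate 1 no gene of 50 to 100 kb reached the limit.

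In each complex or family with several genes, the member whose highest peaks in the replicates had the closest summits was picked, to show sequence at or near the summits. The 3 Vps genes outside all complexes and the lone CHEVI gene were left out of this choice. The windows hold 150 bases of the mm10 genome, centred on the summit of the gene's highest-enrichment peak in replicate 2, written 5′ to 3′ on the strand of the gene. Another window shows Snx29, which holds the highest enrichment of all the genes here. Windows touching untranslated exon sequence were passed over. Capitals mark coding exon and lower case marks intron.
Vps18, chr2:119293156-119293305, plus strand: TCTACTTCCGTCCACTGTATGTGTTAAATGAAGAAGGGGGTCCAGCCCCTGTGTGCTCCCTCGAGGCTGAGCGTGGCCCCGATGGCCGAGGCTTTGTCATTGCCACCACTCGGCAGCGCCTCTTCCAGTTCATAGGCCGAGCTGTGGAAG
Vps37b, chr5:124008539-124008688, minus strand: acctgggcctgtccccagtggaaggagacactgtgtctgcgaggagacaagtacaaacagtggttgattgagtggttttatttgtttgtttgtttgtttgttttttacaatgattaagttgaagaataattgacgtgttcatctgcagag
Vps50, chr6:3555901-3556050, plus strand: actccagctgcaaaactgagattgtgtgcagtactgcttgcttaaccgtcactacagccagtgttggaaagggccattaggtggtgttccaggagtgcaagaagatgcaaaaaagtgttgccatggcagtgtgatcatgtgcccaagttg
Snx5, chr2:144253536-144253685, minus strand: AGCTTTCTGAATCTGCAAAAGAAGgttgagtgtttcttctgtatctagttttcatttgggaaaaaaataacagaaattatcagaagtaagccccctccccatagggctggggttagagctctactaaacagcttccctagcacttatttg
Snx29, chr16:11446820-11446969, plus strand: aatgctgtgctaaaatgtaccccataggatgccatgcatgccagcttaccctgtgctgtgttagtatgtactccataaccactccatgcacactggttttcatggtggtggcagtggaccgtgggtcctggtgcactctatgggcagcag
The Vps18 window is coding throughout, with 150 coding bases and 8 CpG dinucleotides, and the replicate 1 summit lay 1388 bases away. The Snx5 window holds the last 24 bases of a coding exon and the start of the next intron, and its summits were 88 bases apart. The windows of Vps37b, Vps50 and Snx29 are intronic, with summits 46, 131 and 776 bases apart. Over the 55 genes with a summit in both replicates, the highest peaks had summits a median of 2.78 kb apart, and 16 pairs lay within 1 kb. For the retromer and retriever genes and the Vps13 genes the closest pairs that met the rule were 5.30 kb and 23.7 kb apart, in Vps26c and Vps13a, and no sequence is shown for them.

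Of the groups of several genes within the 64, HOPS with CORVET had the highest medians, 23.1% in replicate 1 and 49.6% in replicate 2. The lead over retromer with retriever, at 20.6% and 43.5%, was smaller than the gap between the replicates. All 7 HOPS and CORVET genes had a peak in both replicates. HOPS tethers late endosomes and autophagosomes to lysosomes, CORVET tethers early endosomes, and both are built on a core of Vps11, Vps16, Vps18 and Vps33a. Of the 7 genes 4 were marked, where 8.03% of all coding genes were. Vps11, a scaffold of that core, had 49.2% of its body covered in replicate 1 and 83.2% in replicate 2, and ranked 56th of the 20780 coding genes by the mean of the replicates. It runs on the minus strand of chromosome 9 from 44347749 to 44361670 (mm10) and is 13.9 kb long with 14 exons. Its last peak in replicate 2 was 10.1 kb long and covered all of bins 6 to 10 of the 10 bins along the gene (100%). Vps18, another core scaffold, was at 23.1% and 63.7%, and Vps33a, the core's Sec1/Munc18-type protein that handles SNAREs, at 26.0% and 49.6%. Vps16, the partner that holds Vps33a, stayed just under the limit, at 19.7% and 38.2%.

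The subunits that set these complexes apart differed more widely. Vps39, which joins HOPS to its Rab at the late endosome, was at 40.6% and 71.4% over 36.7 kb and ranked 242nd. Vps41, at the other end of HOPS, was at 9.82% and 22.8% over 149.5 kb, with 20 peaks in replicate 1 and 31 in replicate 2 scattered along it. Vps8, the early endosomal subunit of CORVET, was at 3.87% and 17.9% over 221.6 kb and was the only gene of the 7 to reach 20% in neither replicate. Both low genes are much longer than the rest. Vps8 held 11 peaks in replicate 1 and 43 in replicate 2, and the shorter Vps39 held 13 and 14. The part of length in the low shares was not tested. Vps33b, a relative of Vps33a that works with Vipas39 in a separate complex (CHEVI), was at 14.5% and 58.0%.

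All 6 retromer and retriever genes reached 20% in replicate 2, and 3 of them did in replicate 1, where 24.6% and 8.06% of all coding genes did so. Retromer lifts receptors out of endosomes for return to the Golgi or the surface, and retriever is its relative for a separate set of cargoes. Vps35, the long scaffold of retromer, was at 28.2% in replicate 1 and 56.7% in replicate 2, on chromosome 8 from 85260392 to 85299802. Its counterpart in retriever, Vps35l, was at 23.7% and 68.0% over 102.7 kb, with 30 and 37 peaks. Vps29, a small subunit that both complexes use, was at 26.8% and 27.9%, the closest pair of values among the 14 marked genes. Its highest summits in the replicates both fell in exons annotated as untranslated or non-coding.

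The arrestin-like subunits were lower. Vps26a was at 17.5% and 46.9%, Vps26b at 14.1% and 40.1%, and the retriever form Vps26c at 8.76% and 40.0%. Vps26a and Vps26b, alternative subunits of retromer, thus lay within 7 points of each other in each replicate, a gap smaller than that between the replicates. In Vps26b the first peak began 12.5 kb into the gene in replicate 2, at 56.1% of its length, and bins 1 to 5 held no peak (0%). In Vps26a it began 7.12 kb in, at 22.6%.

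**Figure D2:**
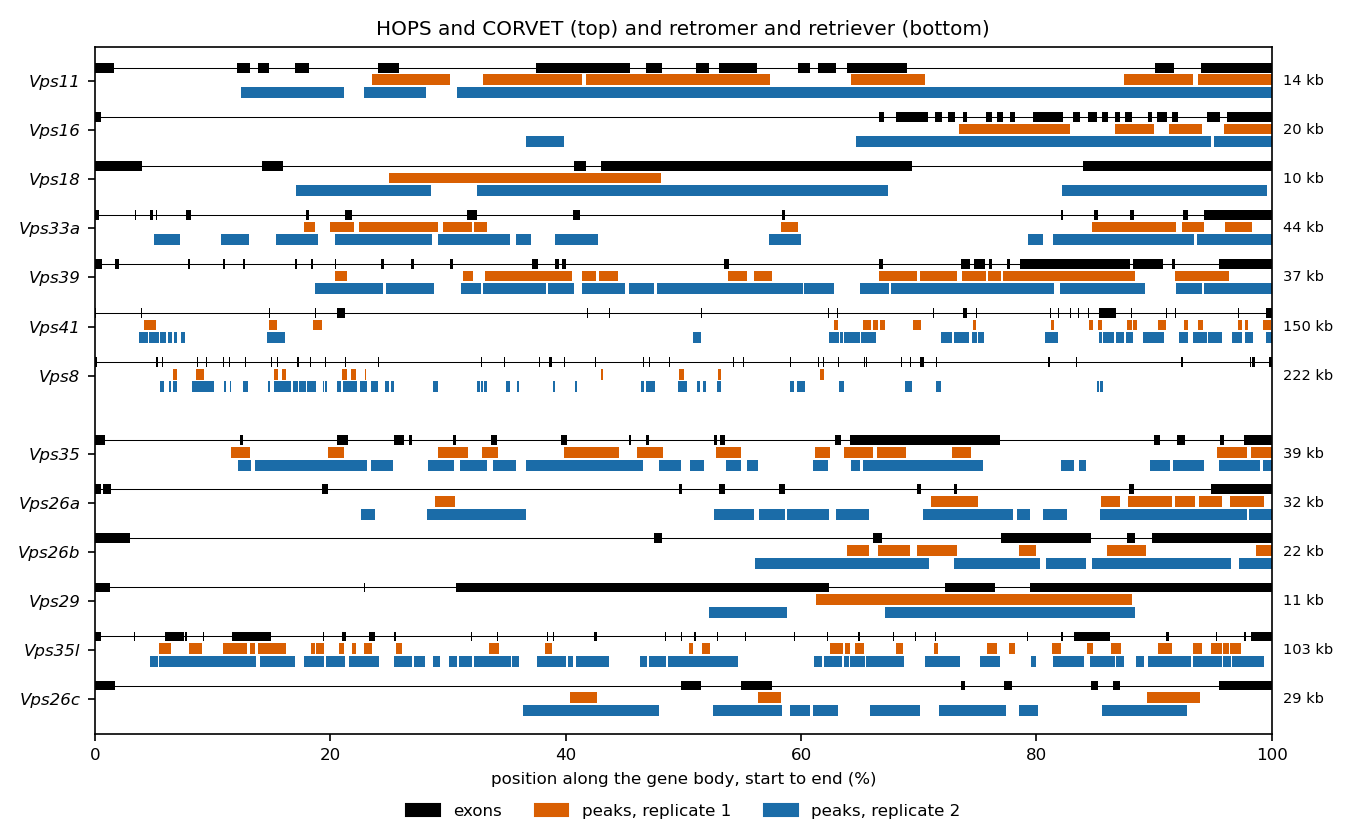
Exons (black) and H3K36me3 peaks of replicate 1 (orange) and replicate 2 (blue) along the 7 HOPS and CORVET genes and the 6 retromer and retriever genes, drawn from gene start to gene end as percent of the body, with gene length at the right. Vps11 is covered almost without a break after its first exons in replicate 2, while the peaks of Vps8 are scattered and thin out toward its end.

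Of the 9 ESCRT genes 6 reached 20% in replicate 2, where 24.6% of all coding genes did. None was marked in both replicates (0 of 9), which is near the 8.03% of all coding genes. ESCRT complexes sort ubiquitinated cargo and bud vesicles into endosomes, and the Vps4 ATPases take the finished machine apart. The ATPase gene Vps4b was at 19.0% in replicate 1 and 59.1% in replicate 2, and the other ATPase gene, Vps4a, at 13.4% and 42.1%. Some of the Vps4a signal lies where the gene overlaps Pdf, and without the shared bases it was at 7.95% and 37.6%. Of the ESCRT-II genes, Vps36, which binds ubiquitin and lipid, was at 8.16% and 21.7%, and Vps25 at 0% and 38.6%. Nearly all of Vps25 lies within the annotated record of Ramp2, so its peak cannot be given to either gene alone.

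In ESCRT-I, Vps28, a short subunit gene of 4.00 kb, had no peak in replicate 1 and 59.5% in replicate 2, from a single peak of 2.38 kb. The 4 forms of Vps37, alternative subunits of ESCRT-I, fell in the order Vps37c (8.19% and 24.7%), Vps37b (3.29% and 17.6%), Vps37a (0.874% and 11.4%) and Vps37d (0% and 0%), the same order in both replicates. Neighbours in that order differed by less than the gap between the replicates of the higher gene, except that Vps37d had no peak in any of the 4 deposited lists. In all 3 covered forms the first peak in replicate 2 lay far down the gene, from 68.9% of its length in Vps37c to 82.2% in Vps37b.

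GARP, which receives vesicles from endosomes at the trans-Golgi network, joins Vps51, Vps52 and Vps53 to Vps54, and EARP takes Vps50 in place of Vps54. Of the 5 genes 4 reached 20% in replicate 2 and 0 were marked in both replicates, where 24.6% and 8.03% of all coding genes did so. Vps52 stood out at 15.3% in replicate 1 and 63.0% in replicate 2, a gap of 47.7 points that is among the 3 widest of the 64 genes. Vps50 (9.83% and 22.6%), Vps53 (5.93% and 21.8%) and Vps54 (7.49% and 20.5%) lay close together just above the limit in replicate 2. Vps51 was just below it, at 0% and 19.6%, or 0% and 21.4% without the bases it shares with Tm7sf2 and Gm28374.

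The Vps13 genes, which encode very long bridges that carry lipids between membranes, split sharply. Vps13c, at contacts of the endoplasmic reticulum with endosomes, lysosomes and lipid droplets, was at 31.7% and 59.9% over 155.2 kb, with 54 and 60 peaks. Vps13a, of nearly the same length at 165.6 kb, was at 0.823% and 2.14%, with 2 and 6 peaks. Human VPS13A is the gene of chorea-acanthocytosis. Vps13d was at 12.5% and 39.2%, and Vps13b, mutated in Cohen syndrome in humans, at 0.743% and 3.22% over 560.1 kb. Vps13c and Vps35l were the only genes here above 100 kb that were marked, where 2.33% of all coding genes of 100 to 200 kb were marked. The gap between Vps13c and Vps13a was wider than that between the replicates of either.

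The 3 further Vps-named genes belong to none of these complexes, and none was marked. Vps72, which despite its name encodes a chromatin protein that handles the histone variant H2A.Z, was at 4.18% and 47.6%. Vps9d1, which carries a domain of Rab5 exchange factors, was at 12.1% and 40.2%, but its whole body is shared with the annotated records of Zfp276 and Gm20388. Vps45, a Sec1/Munc18-type protein of early endosomes, was low at 1.97% and 7.21%.

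**Figure D3:**
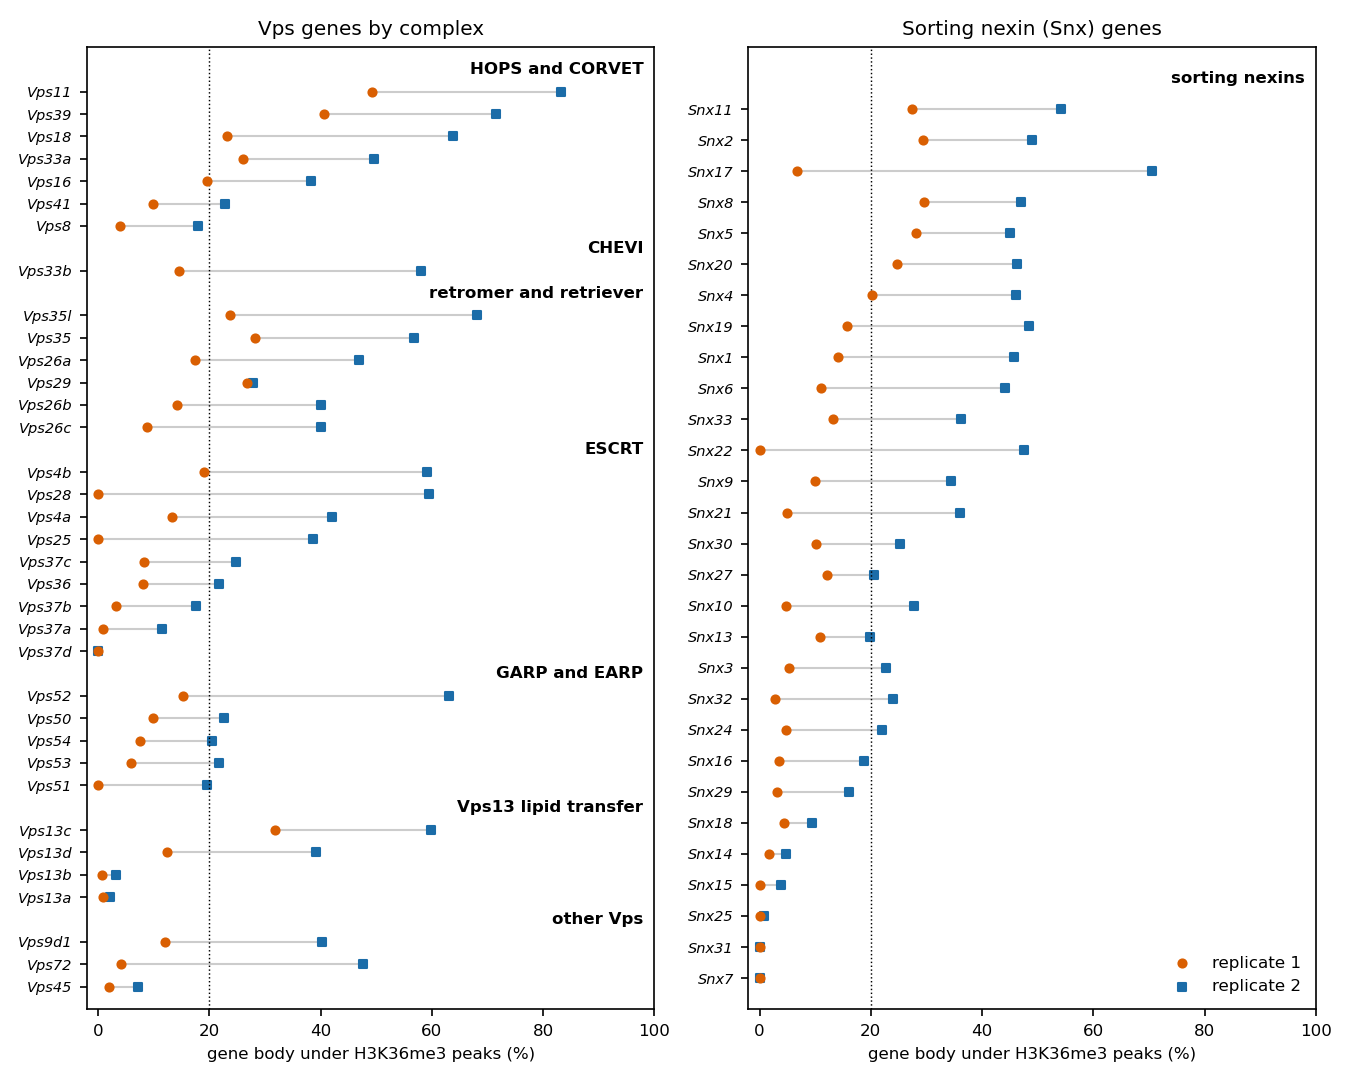
Percent of each gene body under H3K36me3 peaks in replicate 1 (orange circles) and replicate 2 (blue squares) for the 35 Vps genes by complex (left) and the 29 sorting nexin genes (right), each ordered by the mean of the replicates. The dotted line is the 20% limit, which 14 genes pass in both replicates; the square lies to the right of the circle in 61 genes.

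Among the 29 sorting nexins, 6 were marked and 20 reached 20% in replicate 2, which is 20.7% and 69.0% of them. Of all autosomal coding genes, 8.03% were marked and 24.6% reached 20% in replicate 2. By structure, 4 of the 12 with a BAR domain were marked and 10 reached 20% in replicate 2. Of the 4 genes of the SNX-RGS subfamily it was 0 and 1, of the 3 with a FERM-like domain 0 and 2, and of the 10 outside these groups 2 and 7. These groups are small and were not tested against each other, and the SNX-RGS counts of 0 and 1 of 4 are near the shares of all coding genes.

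The BAR-domain sorting nexins that pair with retromer cargo were all covered in both replicates. Snx2 (29.5% and 49.0%) and Snx5 (28.1% and 45.1%) were marked, while Snx1 (14.1% and 45.8%) and Snx6 (11.1% and 44.1%) fell short in replicate 1 only. In replicate 2 these 4 genes lay within 5 points of each other, so their order is not resolved. Snx32, which is close in sequence to Snx5 and Snx6, was lower at 2.84% and 24.0%, and at 3.63% and 12.3% without the bases it shares with Cfl1 and 1700020D05Rik. Snx8, which acts in endosome to Golgi transport, was at 29.5% and 47.0%, with a top enrichment of 7.81 in replicate 2. Snx4, which recycles receptors and serves autophagy, was marked at 20.2% and 46.0%, the lowest of the marked genes in replicate 1. Its partners in that work, Snx30 and Snx7, were at 10.1% and 25.2%, and at 0% in both replicates. Snx9, Snx18 and Snx33, which bend membrane at the cell surface, were at 9.99% and 34.4%, 4.34% and 9.43%, and 13.2% and 36.2%.

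Snx20, which binds the leukocyte adhesion molecule PSGL-1, was marked at 24.7% and 46.2%. Its relative Snx21 was at 4.98% and 35.98%. Snx11 had the highest mean covered share of the sorting nexins, at 27.4% and 54.2% over 10.0 kb, and its highest summits in the replicates both lay in coding exon sequence. Snx10, which osteoclasts need to acidify the bone surface, was at 4.74% and 27.8%. Snx17, which hands integrins and other cargo to retriever, had the widest gap between replicates of all 64 genes, at 6.69% and 70.5%. Snx27, its counterpart for retromer, was at 12.1% and 20.6%, and Snx31, the remaining FERM-like member, had no peak. Snx3, which recruits retromer through lipid binding, was at 5.24% and 22.8%.

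The remaining sorting nexins varied widely. Snx19, which belongs to the SNX-RGS subfamily but lacks the RGS domain itself, was the only gene of that subfamily to reach 20% in replicate 2, at 15.8% and 48.4%, against Snx13 at 10.8% and 19.9%, Snx14 at 1.64% and 4.69%, and Snx25 at 0% and 0.849%. Snx22, of 4.54 kb, had no peak in replicate 1 and 47.4% in replicate 2, but 26.1% without the part shared with Ppib. Snx15 was at 0% and 3.93%, Snx16 at 3.50% and 18.8% (6.93% and 37.3% outside Chmp4c), and Snx24 at 4.70% and 22.1%. In all, 22 of the 64 genes overlap another coding gene in the annotation.

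Snx29, the second longest of the 64 at 432.6 kb, had low covered shares of 3.20% and 16.0% but the highest peak enrichment of any, 5.69 in replicate 1 and 7.81 in replicate 2 by the authors' values (Snx8 also reaches 7.81). These summits were intronic, 776 bases apart and about 124.0 kb from the gene start, 28.7% along the gene in replicate 2. Replicate 2 placed 56 peaks in it. Over all peaks touching the 64 genes the median enrichment was 3.12 in replicate 1 (429 peaks) and 3.82 in replicate 2 (781 peaks), against 3.22 and 3.83 over all peaks of each list. The genes here held a peak more often than others, but their peaks were not of higher enrichment.

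Of the 429 replicate 1 peaks, 90.9% touched a replicate 2 peak. By bases, 84.8% of the replicate 1 coverage of these genes lay within replicate 2 peaks and 31.1% of the replicate 2 coverage within replicate 1 peaks. The values near the 20% limit show how the calls turn on replicate 1. Just inside were Vps35l, Vps18 and Snx4 at 23.7%, 23.1% and 20.2% in replicate 1, and just outside were Vps16, Vps4b and Vps26a at 19.7%, 19.0% and 17.5%. In replicate 2 these 6 genes lay between 38.2% and 68.0%.

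Along the gene, coverage lay toward the end. Over the 62 genes of at least 5 kb, bins 6 to 10 were covered at 17.8% on average and bins 1 to 5 at 6.70% in replicate 1, a ratio of 2.66. In replicate 2 it was 47.3% and 19.4%, a ratio of 2.44. Over all autosomal coding genes of at least 5 kb the ratios were 2.64 and 2.31. The first bin held 1.38% and 4.10% and the last 20.9% and 54.0%. Downstream of the genes, 4.76% and 15.5% of the next 5 kb lay under peaks, against 1.18% and 4.53% of the 5 kb upstream. The end side was covered more in both replicates in 43 genes. The extremes in replicate 2 were Vps26b (80.2% against 0%), Vps9d1 (79.7% against 0.667%) and Snx1 (84.9% against 6.71%). The whole body of Vps9d1 is shared with other annotated records, so its peaks cannot be given to it alone.

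**Figure D4:**
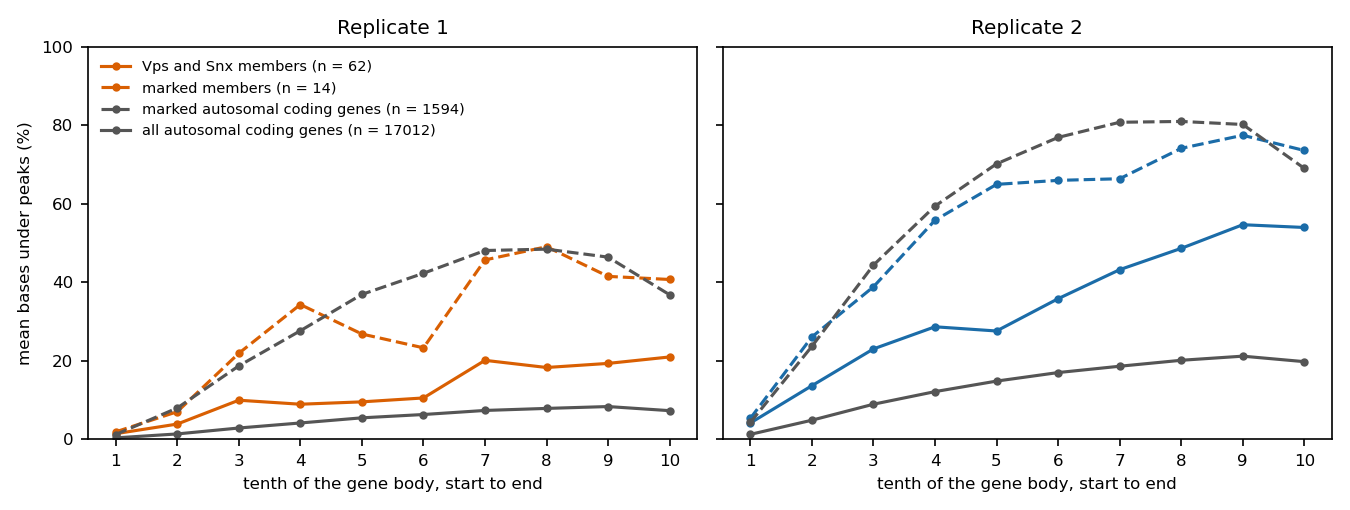
Mean percent of bases under peaks in 10 equal bins from gene start to gene end, in replicate 1 (left) and replicate 2 (right), for genes of at least 5 kb: all Vps and Snx genes (coloured, solid), the 14 marked ones (coloured, dashed), all autosomal coding genes (grey, solid) and all marked ones (grey, dashed). For all Vps and Snx genes in replicate 2, 54.7% of bases were covered in bin 9 and 4.10% in the first bin.

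A group of 8 genes went the other way in both replicates: Vps13d, Vps8, Vps53, Vps33a, Vps45, Snx16, Snx19 and Snx29. In Vps13d bins 6 to 10 were covered at 18.8% and bins 1 to 5 at 59.6% in replicate 2, and at 1.55% and 23.4% in replicate 1. In Snx29 it was 5.72% and 26.3% in replicate 2, and in Vps8 8.28% and 27.6%. In Snx16 and Vps45 the end side had no peak in either replicate (0%), while the start side had 37.7% and 14.4% in replicate 2. The end side of Snx16 overlaps Chmp4c, an ESCRT-III gene that itself was at 1.66% and 1.39%. In Vps33a the sides were close, at 44.7% and 54.5%. Vps18 went this way in replicate 1 only (0% and 46.2%), with 69.5% and 58.0% in replicate 2.

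**Figure D5:**
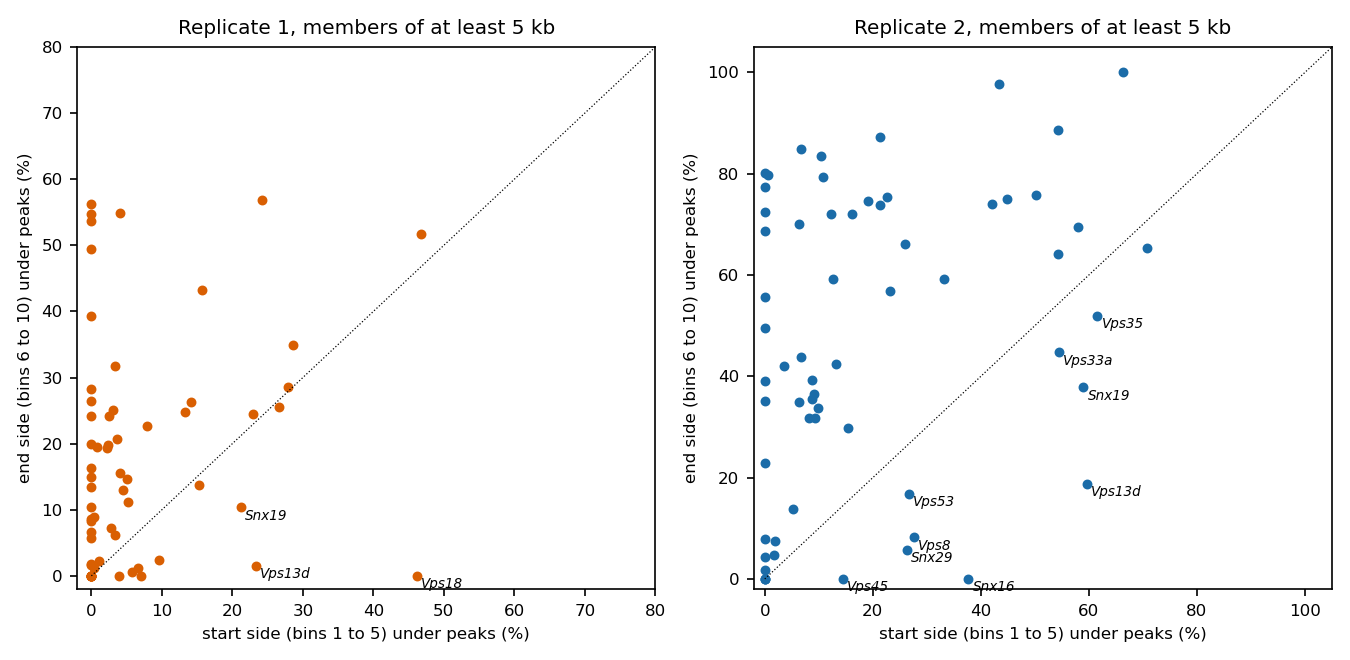
Percent under peaks of the end side (bins 6 to 10, vertical axis) against the start side (bins 1 to 5, horizontal axis) of the 62 genes of at least 5 kb, in replicate 1 (left) and replicate 2 (right), with a dotted line of equality. Genes whose start side exceeds the end side by more than 9 points are named, and Vps13d is among them in both replicates.

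Exons were over-represented under the peaks relative to their length. Exons make up 8.87% of the bodies of the 64 genes but 20.8% of their covered bases in replicate 1 and 18.1% in replicate 2. Exon bases were covered at 20.9% and intron bases at 7.73% in replicate 1, and at 49.6% and 21.8% in replicate 2. Among the 14 marked genes the figures were 41.7% and 26.4% in replicate 1, and 74.0% and 54.1% in replicate 2. Exons made up 15.8% of the bodies of these 14 genes and 22.8% and 20.4% of their covered bases, a smaller excess. All these shares pool bases over genes, so long genes with few exon bases and little coverage weigh on them. Exons of these genes also differ from introns in their position along the gene. The parts of position and of pooling over genes in the excess of exons were not tested.

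Partners of these complexes that lie outside the name pattern were examined from a list. Of 45 listed, 44 are autosomal, and 13 of these were marked, or 29.5%, with 33 at 20% or more in replicate 2, where 8.03% and 24.6% of all coding genes did so. Washc5 (64.2% and 85.3%), a subunit of the WASH complex that makes actin on endosomes with retromer, was highest. The endosomal ubiquitin sorter Hgs (52.2% and 73.1%, in the longer of its overlapping annotation records) and the WASH subunit Washc4 (41.9% and 76.3%) came next. Of the 5 WASH genes 4 were marked and 5 reached 20% in replicate 2. Of the 11 COMMD and CCDC genes, whose products work with retriever, 2 were marked and 5 reached 20% in replicate 2, with medians of 9.56% in replicate 1 and 17.0% in replicate 2. Lowest were Chmp1b and Commd5, with no peak, and Commd1 at 0% and 0.849%. Of 21 ESCRT partners 4 were marked and 17 reached 20% in replicate 2. Vipas39, which pairs with Vps33b, was at 49.9% and 68.0% and so above Vps33b in both replicates.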

How the data were processed

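H3K36me3 ChIP-seq peaks of 2 biological replicates of unstimulated BMDM were used. Per the deposited file manifests, the authors called each replicate's list on its own filtered mm10 alignments with a control and kept peaks found in pseudoreplicates, and made a pooled and a replicated list from both. What aligned the reads and called the peaks is not given in the sources used here. The enrichment of a peak is a ratio over the caller's background as deposited, and its −log10 q was used as the authors gave it. Read counts were not given, so depth is unknown and no counting interval is printed.

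Gene bodies and exons came from GENCODE release M21 (GRCm38, the assembly of mm10), with the longest record per symbol, and sequences from the RefSeq copy of GRCm38.p6. Covered shares, 10 bins per gene in the direction of transcription and exon shares were computed with Python 3.11.15, numpy 2.4.6 and pandas 2.3.3, and the coverage steps were tested on simulated data. Named genes are every Vps gene and every sorting nexin, and of the partners the 3 highest and 3 lowest plus the CHEVI partner and Chmp4c, picked after their values were seen. Sequence windows followed the rule given with them, also set after the data were seen. The genes, groups and limits were chosen with earlier results of these data known. Alternatives tried were peaks kept from a −log10 q of 5 or from an enrichment of 3 upward, limits of 10% and 50%, each replicate alone, the authors' combined lists, and other gene bodies and exons.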

Additional observations from a re-analysis of the deposited data

Results flagged for a closer look

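Snx7, a relative of Snx4, had no peak in either replicate's own list, yet 1.50% of its body lay under peaks in the authors' pooled list and 1.50% in their replicated list, lists that the covered shares above are not taken from. The signal comes from 2 peaks of 665 and 644 bases on chromosome 3, from 117832398 to 117833062 and from 117836682 to 117837325, with the authors' enrichments of 2.97 and 2.64. Control libraries were not analysed here.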

How the results depend on the processing

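Of 88 recomputed values 46 stayed within 1.5 times the reported count or within 1 SD between the replicates, and 42 moved beyond. For the median covered share that SD was 18.6 points, more than the replicate 1 median of 9.82% itself. No fall in that median could count as moved, so the 46 do not speak for its stability. Other values among the 46 were also fixed in advance. Leaving out replicate 2 had to return the same marked counts, as no gene here reached 20% in replicate 1 alone. A stricter setting could not lower the ESCRT count of 0. Dropping genes without a peak cannot change the ratio of end to start side. The number marked depends on the peak threshold. With a −log10 q of at least 5, 2 genes were marked (Vps11 and Vps29; 1 of HOPS and CORVET, 1 of retromer and retriever, 0 sorting nexins), against 1.52% of all coding genes, and 26 had a peak in both replicates. With an enrichment of at least 3 it was 7 (2, 1 and 3), against 5.12%. At 10% covered it was 30, with 5 of retromer and retriever, 2 of ESCRT and 13 sorting nexins, against 16.0% of all coding genes. At 50% it was 0 in each group, against 0.433%. Called from 1 replicate alone the number ran from 14 to 47, that of all coding genes from 8.06% to 24.6%, HOPS and CORVET from 4 to 6, retromer and retriever from 3 to 6, ESCRT from 0 to 6, sorting nexins from 6 to 20, and genes with a peak from 55 to 61. The authors' replicated list gave 48 (6 of retromer and retriever, 6 of ESCRT, 21 sorting nexins; 25.3% of all coding genes), and their pooled list 49 (7 of HOPS and CORVET, 6, 6 and 21; 26.4%). The percent in the Vps and Snx genes was above that of all coding genes in each of these settings except at 50% covered. Without bases shared with another coding gene, 15 were marked, Vps16 being added at 20.0% and 38.9%; Vps9d1 has no unshared base and gave no value. The ratio of end to start side was 2.20 in replicate 1 and 2.73 in replicate 2 with a −log10 q of at least 5, and 2.98 in replicate 1 with an enrichment of at least 3. With exons of the longest coding transcript only, exons held 14.2% and 12.1% of the peak bases. The share of the bodies in those exons is not given, so these values cannot be set against the 8.87% above. The median covered share in replicate 1 was 0% with a −log10 q of at least 5, a fall that the wide SD counts as unmoved. The causes of these changes were not tested beyond what each setting leaves out. The unknown depth limits every gap between the replicates.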

Other observations

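Snx12, the sorting nexin gene left out because it lies on the X chromosome (101097786 to 101222563, 124.8 kb), had no peak in either replicate, and 0.309% of its body was covered in the authors' pooled and replicated lists.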
